A study of Mus musculus with 2 samples.

Results

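The Schlafen genes form a cluster on mouse chromosome 11 and are known for their induction by interferon in macrophages. All 7 members (Slfn1, Slfn2, Slfn3, Slfn4, Slfn5, Slfn8 and Slfn9) were taken by symbol from tables of 16263 genes. Transcripts had been sequenced from bone marrow-derived macrophages of C57BL/6 mice, either wild type (WT) or labelled SIRPalpha-/- (SIRPα-KO, here the knockout library). Myeloid cells carry SIRPα as an inhibitory receptor, and its ligand is CD47. In both groups, marrow cells had spent 5 days in M-CSF-conditioned medium and then 6 h with interferon-γ (20 ng/ml) and lipopolysaccharide (LPS, 100 ng/ml), and mCD47.ex was present. RNA came from the combined macrophages of 5 mice for each genotype, which left 1 library per genotype. Cultures without interferon-γ and LPS, or without mCD47.ex, were not analysed here, so the values show levels in activated cells and not induction. Values are FPKM, that is fragments scaled by transcript length and by the number mapped, a unit inferred from the numbers themselves. Where 2 values of a gene are given side by side, WT comes first. Folds are plain ratios of FPKM, and log2 ratios are differences of log2(FPKM + 1), SIRPα-KO minus WT. The 10092 genes that reached 1 FPKM in one library or both are called kept. With 1 library per genotype there is no replicate spread and no test. In bulk RNA, fewer cells of a type and less RNA per cell cannot be told apart.

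Schlafen proteins share an N-terminal domain, which in several family members has been shown to bind or cleave RNA, and only the long members carry a helicase-like C-terminal part. The mouse family is commonly divided into short members (Slfn1 and Slfn2), intermediate members (Slfn3 and Slfn4) and long members (Slfn5, Slfn8 and Slfn9). The genes were first described as growth regulators of developing T cells, and several are interferon-stimulated genes of macrophages.

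Slfn4 and Slfn8 were lower in the SIRPα-KO library than in the WT library, by 4.32-fold and 3.18-fold, and Slfn9 was higher by 2.19-fold. The other 4 members differed by at most 1.22-fold. Slfn2 and Slfn5, the most abundant members, were among these. Across the family the summed level was 2323 FPKM in WT against 2118 in the knockout library, with a log2 ratio of -0.13. Every member but Slfn5 had a log2 ratio further from 0 than the sum had.

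The sequences just upstream of the genes introduce the members with the largest differences. For Slfn8, Slfn9, Slfn5 and Slfn4, the 250 bases before the transcript start are given from RefSeq (GRCm38.p6, a later build than the mm9 named in the submitters' processing notes), each on its own strand. Slfn8 lies on the minus strand at chr11:83020811-83021060 (the more upstream of 2 annotated starts), Slfn9 on the minus strand at chr11:82991831-82992080, Slfn5 on the plus strand at chr11:82951852-82952101 and Slfn4 on the plus strand at chr11:83174936-83175185. Slfn8 and Slfn9 are shown because their levels differed in opposite directions, Slfn5 because its level hardly differed, and Slfn4 because it had the largest difference. Capitals mark matches to TTTC followed by any 2 bases and TTTC, the core of the interferon-stimulated response element, on either strand.
Slfn8: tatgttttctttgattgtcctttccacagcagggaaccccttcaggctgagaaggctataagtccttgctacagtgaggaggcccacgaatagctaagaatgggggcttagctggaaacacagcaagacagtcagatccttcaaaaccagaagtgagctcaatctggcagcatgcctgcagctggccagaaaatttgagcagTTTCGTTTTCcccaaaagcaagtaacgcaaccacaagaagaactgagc
Slfn9: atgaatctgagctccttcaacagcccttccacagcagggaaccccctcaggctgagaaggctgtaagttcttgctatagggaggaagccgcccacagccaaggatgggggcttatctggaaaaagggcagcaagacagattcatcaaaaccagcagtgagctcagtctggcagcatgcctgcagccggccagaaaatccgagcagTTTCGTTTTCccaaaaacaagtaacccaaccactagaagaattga
Slfn5: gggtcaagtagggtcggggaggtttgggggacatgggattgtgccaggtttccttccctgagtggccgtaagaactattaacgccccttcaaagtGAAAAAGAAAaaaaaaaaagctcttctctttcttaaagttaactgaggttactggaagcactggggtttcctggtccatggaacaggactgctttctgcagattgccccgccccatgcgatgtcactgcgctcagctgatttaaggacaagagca
Slfn4: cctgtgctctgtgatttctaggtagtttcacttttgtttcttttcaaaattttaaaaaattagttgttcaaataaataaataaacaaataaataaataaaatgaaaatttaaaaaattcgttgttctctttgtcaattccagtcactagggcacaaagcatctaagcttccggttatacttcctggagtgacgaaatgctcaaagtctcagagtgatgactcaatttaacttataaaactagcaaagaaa

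This response-element core occurred in the 300-base windows (250 bases before to 50 after the start) of 3 of the 7 members, namely Slfn5, Slfn8 and Slfn9. The same core was in 3.44% of 32851 windows of the whole genome table, or in 4.34% of the 8060 kept genes with a window. In Slfn8 the match lay 48 to 39 bases before the start and in Slfn9 45 to 36 bases before it, with identical letters (tttcgttttc). The match of Slfn5 lay 155 to 146 bases before the start and read gaaaaagaaa, the core on the opposite strand. The interferon-γ-activated site, searched as TTC, any 3 bases and GAA, which reads the same on both strands, was in the window of 0 of the 7 members and in 8.30% of all windows. The windows of Slfn8 and Slfn9 were identical at 246 of 295 aligned bases (83.4%). The members that carry the motif include one that was lower (Slfn8), one that was higher (Slfn9) and one that was nearly equal (Slfn5). The separate values of Slfn8 and Slfn9 are uncertain, as said below, and the part of the motif in the differences was not tested.

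Coding sequences followed the size classes. The longest complete coding sequence in GENCODE release 21 for mouse had 1014 bases in Slfn1, 1137 in Slfn2, 1809 in Slfn4, 1923 in Slfn3, 2655 in Slfn5, and 2733 in both Slfn8 and Slfn9. Slfn8 and Slfn9 were identical at 92.7% of 2733 aligned coding bases, and Slfn3 and Slfn4 at 91.6% of 1782. Slfn1 and Slfn2 were identical at 70.1% of 1007 aligned bases, and Slfn5 and Slfn8 at 61.0% of 2588. Each of the 2 closest pairs holds at least 1 member past 2-fold between the libraries.

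The longest stretch of coding sequence that Slfn8 and Slfn9 have in common is 139 bases long (positions 2540 to 2678 from the start codon in both). It is shown because a short read from it could come from either gene.
Slfn8 and Slfn9: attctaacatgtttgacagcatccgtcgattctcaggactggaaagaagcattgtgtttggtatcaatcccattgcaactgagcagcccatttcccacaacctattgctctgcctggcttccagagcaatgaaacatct
For Slfn3 and Slfn4 the longest such stretch has 95 bases, at positions 1433 to 1527 of Slfn3 and 1301 to 1395 of Slfn4.
Slfn3 and Slfn4: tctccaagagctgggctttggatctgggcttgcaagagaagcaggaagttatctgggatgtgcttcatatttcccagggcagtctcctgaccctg

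The plot of levels by library shows all members and the pseudogene Slfn10-ps.

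**Figure D1:**
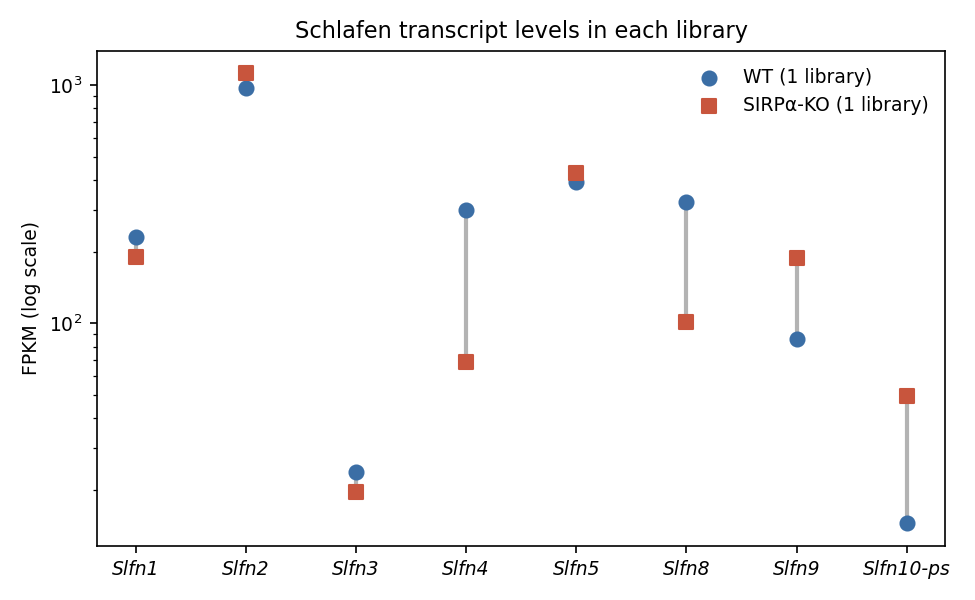
FPKM on a log axis (y) of the 7 Schlafen members and the pseudogene Slfn10-ps (x), with circles for the WT library and squares for the SIRPα-KO library, 1 library each and no error bars. Slfn4 and Slfn8 have the WT circle well above the square, Slfn9 and Slfn10-ps the reverse, and the other 4 members have nearly touching points.

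Slfn2, a member whose loss in mice makes T cells and monocytes fail to survive activation, was at 969 FPKM in WT against 1122 in the knockout library. It was the most abundant member in both libraries, at rank 60 in WT and rank 44 in SIRPα-KO among all 16263 genes. The ratio was 1.16-fold, a log2 ratio of 0.21. Slfn1, described as an inhibitor of T cell growth, was at 231 FPKM in WT against 189 in the knockout library, with a log2 ratio of -0.29. Both short members were therefore short of 2-fold, with values on opposite sides of equality.

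Slfn4, an intermediate member known in activated macrophages and in myeloid cells of inflamed tissue, was at 299 FPKM in WT against 69.0 in the knockout library. It went from rank 246 to rank 1059 of all genes. Its log2 ratio of -2.10 was the lowest of the family, and 61 of the 10092 kept genes had a lower one. Slfn3, its neighbour and closest relative, was the least abundant member, at 23.9 FPKM in WT against 19.6 in the knockout library, with a log2 ratio of -0.28. Slfn3 and Slfn4 together were at 322 FPKM in WT against 88.6 in the knockout library, with a log2 ratio of -1.85, so the sum of the pair was lower by 3.64-fold.

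Slfn5, a long member found in the nucleus, was at 392 FPKM in WT against 428 in the knockout library, with a log2 ratio of 0.13, the closest to equality in the family. Slfn8, a long member, was at 322 FPKM in WT against 101 in the knockout library, with a log2 ratio of -1.66, and 126 kept genes had a lower one. Slfn9, the neighbour of Slfn8 in the cluster, was at 86.3 FPKM in WT against 189 in the knockout library, with a log2 ratio of 1.12, and 262 kept genes had a higher one. Slfn8 made up 78.9% of the sum of this pair in WT and 35.0% in SIRPα-KO, so that the more abundant gene of the pair was not the same in both libraries.

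Slfn10-ps, annotated as a pseudogene and not a member, lies next to Slfn8. It was at 14.5 FPKM in WT against 49.6 in the knockout library, with a log2 ratio of 1.71, and 98 kept genes had a higher one. The gene listed as Slfn14-ps, which RefSeq calls Slfn14 and which is best known in platelets, was at 0.05 and 0.12 FPKM, below the minimum. Slfnl1, a Schlafen-like gene, was not analysed here.

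Slfn8 and Slfn9 together were at 408 FPKM in WT against 290 in the knockout library, with a log2 ratio of -0.49 and a 1.41-fold lower sum. With Slfn10-ps added, a sum chosen after the values had been seen, the levels were 423 and 340 FPKM, a log2 ratio of -0.32. Neither of these sums reached 2-fold, although each of the 3 genes did alone. Slfn9 and Slfn10-ps without Slfn8, also summed after the values had been seen, were at 101 FPKM in WT against 238 in the knockout library. The log2 ratio of that sum was 1.23, past 2-fold. Of the 50-base words (all runs of 50 bases) in Slfn8 transcripts, 9.30% also occurred in Slfn9 and 10.1% in Slfn10-ps. Of those in Slfn10-ps, 11.8% occurred in Slfn8 and 13.5% in Slfn9. With up to 2 mismatches allowed, 43.8% of 2684 windows of 50 coding bases in Slfn8 matched the aligned window of Slfn9. The read length, and how the authors assigned reads that fit more than 1 gene, are not stated in any source used here, so the separate values of Slfn8, Slfn9 and Slfn10-ps are uncertain.

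Sequence shared within the intermediate pair was similar in extent. Of the 50-base words in Slfn4 transcripts, 6.28% occurred in Slfn3 and 1.72% in Slfn2, and 7.39% of the words of Slfn3 occurred in Slfn4. Up to 2 mismatches were found in 52.6% of 1874 coding windows of Slfn3 aligned to Slfn4. Here the sum of the pair stayed past 2-fold. Slfn1 shared 0.606% of its words with another tabulated gene, Slfn5 3.07% and Slfn2 4.27%.

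Genes with much shared sequence were called more often in these tables as a whole. Among 331 kept genes with 20% or more of their words in another tabulated gene, 23.9% differed at least 2-fold, against 7.14% of 9714 genes under that limit, which was chosen after the members' values had been seen. Each of the 7 members was under it, with Slfn8 the highest at 14.6%, and Slfn10-ps was at 19.7%. The part of shared sequence in the Schlafen differences was not tested.

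Over the members, 1 of 7 was higher (Slfn9), 2 were lower (Slfn4 and Slfn8) and 4 were neither, at a limit of 2-fold on log2(FPKM + 1). Of the 10092 kept genes, 3.43% were higher and 4.3% lower by that limit, together 7.73%. Counts for the flanking genes and for every gene list below are to be read beside the same shares. All 7 members passed the minimum, and each passed it in both libraries. The median log2 ratio of the members was -0.28, against 0.06 over all kept genes, and 4 of the 7 ratios were below 0. With 7 genes of 1 cluster that share sequence, these counts describe the family and test nothing.

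**Figure D2:**
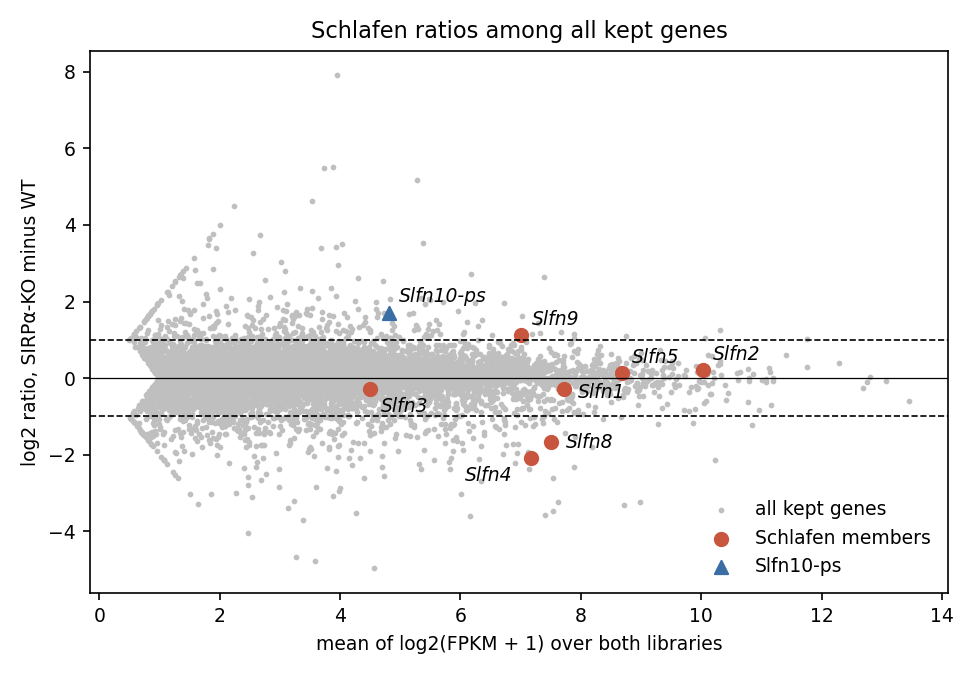
Log2 ratio of SIRPα-KO to WT (y) against the mean of log2(FPKM + 1) over both libraries (x) for all kept genes (grey), the 7 Schlafen members (red circles) and Slfn10-ps (blue triangle), with dashed lines at 2-fold. Slfn4 (-2.10) and Slfn8 (-1.66) lie under the lower line, Slfn9 (1.12) and Slfn10-ps (1.71) above the upper one, and the remaining members between the lines.

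The depth behind the values was high for each member. From a step size that corresponds to 11000000 reads per library, roughly, and from the length of the annotated transcript, Slfn4 rested on some 13000 WT and 3000 knockout reads. Slfn3 had the fewest, about 480 and 390. An exact binomial 95% interval for counting error alone put the log2 ratio of Slfn4 (without pseudocount) between -2.17 and -2.06, that of Slfn8 between -1.72 and -1.62 and that of Slfn9 between 1.08 and 1.17. For Slfn3 it was -0.48 to -0.09, and for Slfn1 -0.35 to -0.23. These intervals rest on estimated reads that are not independent molecules, and they hold nothing of the variation between mice, cultures or libraries.

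Within each library the order of levels was as follows. In WT it ran Slfn2, Slfn5, Slfn8, Slfn4, Slfn1, Slfn9 and Slfn3, from 969 down to 23.9 FPKM. In SIRPα-KO it ran Slfn2, Slfn5, Slfn1, Slfn9, Slfn8, Slfn4 and Slfn3, from 1122 down to 19.6 FPKM. Slfn1 and Slfn9 were level in SIRPα-KO, both at 189 FPKM, and Slfn8 and Slfn4 were close in WT, at 322 and 299 FPKM. Whether such neighbours differ beyond the spread of samples cannot be said from 1 library. Slfn2, Slfn5 and Slfn3 kept their places at the top and bottom, and the 4 members between them changed order.

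The make-up of the family's transcripts differed between the libraries. Slfn2 made up 41.7% of the summed FPKM of the 7 members in WT against 53.0% in the knockout library. Slfn5 took 16.9% and 20.2%. Slfn4 went from 12.9% to 3.26% and Slfn8 from 13.9% to 4.79%. Slfn9 went from 3.71% to 8.91%, while Slfn1 held 9.96% and 8.93% and Slfn3 1.03% and 0.924%.

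**Figure D3:**
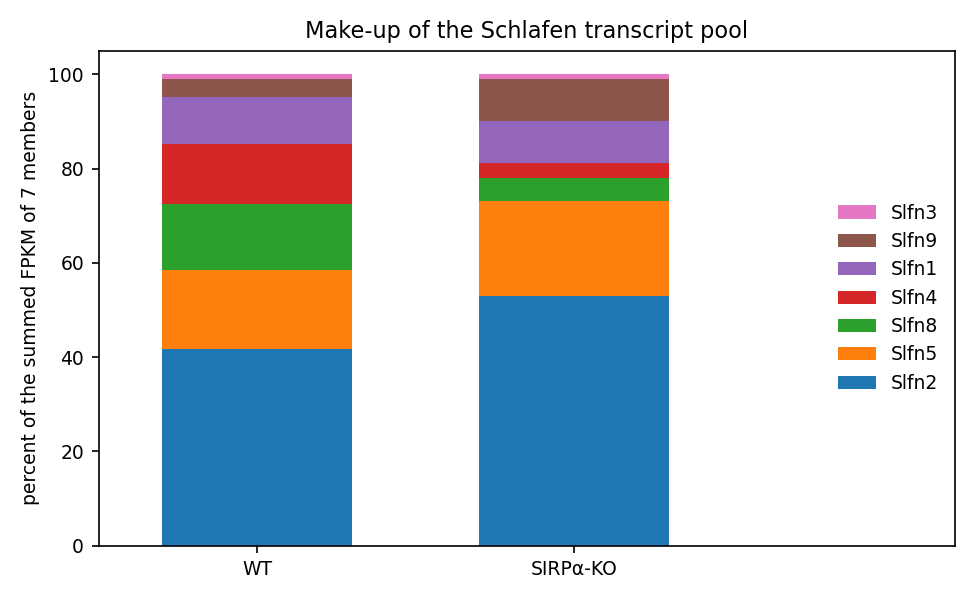
Percent of the summed FPKM of the 7 Schlafen members (y) that each member made up in the WT and the SIRPα-KO library (x), stacked to the whole. The Slfn2 band covers 41.7% of the WT bar and 53.0% of the SIRPα-KO bar, where the bands of Slfn4 and Slfn8 are thinner.

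The genes around the cluster were taken as the 10 tabulated genes on each side of the outermost members in RefSeq order. Of these 20 genes, 10 were kept, 0 were higher and 1 was lower, with a median log2 ratio of -0.18 and a range from -1.02 to 0.52. The lower one was Rffl, which encodes a ubiquitin ligase and is the sixth gene out, at 11.35 FPKM in WT against 5.11 in the knockout library (named after its value was seen). Next to Slfn5 lies 1700003F17Rik (Slfn5os in RefSeq), an antisense RNA of Slfn5, at 8.77 and 6.08 FPKM. The use of strand in counting is not stated, so reads of this RNA and of Slfn5 cannot be told apart where they overlap. Beyond it, Unc45b (0.07 FPKM and listed at 0) and Nle1 (0.35 and 0.61 FPKM) were below the minimum. On the other side, AI662270, a noncoding RNA next to Slfn3, was at 50.1 and 59.9 FPKM, and AA465934, the gene after Slfn14-ps, at 0.58 and 0.75 FPKM. Genes past 2-fold in opposite directions thus lay side by side within the cluster, and the nearest kept gene on each side was short of 2-fold. The genes side by side were Slfn9, Slfn8 and Slfn10-ps, whose separate values are uncertain because of the shared sequence given above.

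**Figure D4:**
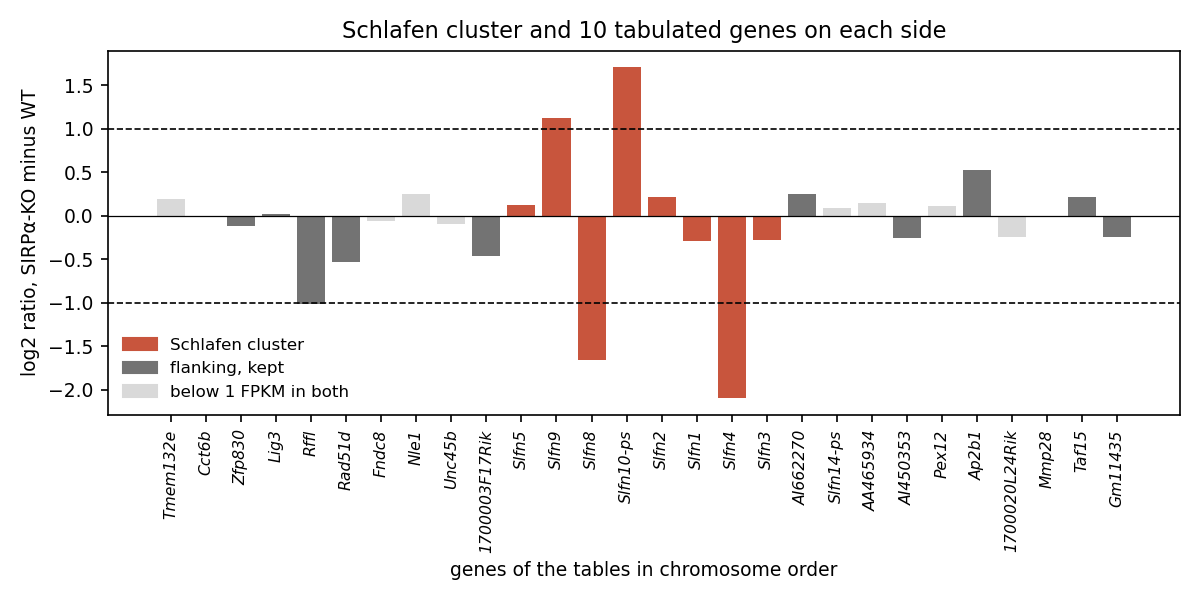
Log2 ratio of SIRPα-KO to WT (y) for the Schlafen cluster (red) and 10 tabulated genes on each side (dark grey where kept, light grey where below 1 FPKM in both libraries), in chromosome order and not to distance (x), with dashed lines at 2-fold. Slfn9 and Slfn10-ps point up and flank Slfn8, which points down, and Slfn4 has the lowest bar.

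In the interferon pathway that induces Schlafen genes, the 20 genes listed for it were short of 2-fold. Interferons bind their receptors, receptor-bound JAK kinases are activated, and transcription factors then drive genes with the response element. Of 20 receptors, kinases, transcription factors and feedback genes of this pathway, 0 were higher and 0 lower, and the median log2 ratio was -0.07. Irf7, the most abundant, was at 1182 FPKM in WT against 1176 in the knockout library. Among others, named after their values were seen, Stat2, a transcription factor gene of the pathway, was at 219 and 208 FPKM, and Ifnb1, the gene of interferon-β, at 3.93 and 5.29 FPKM. The type I receptor chains Ifnar1 (53.8 and 36.3 FPKM) and Ifnar2 (115.5 and 80.5 FPKM) had lower values in SIRPα-KO, short of 2-fold. The interferon-γ gene Ifng was not in this list but among the T and NK cell markers. It was called higher, at 0.52 FPKM in WT against 3.24 in the knockout library.

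Among 26 other genes that type I interferon induces, 0 were higher and 1 was lower, with a median of -0.16 and ratios from -1.20 to 0.38. Of the 26 ratios, 19 were below 0. The summed level was 19577 FPKM in WT against 15330 in the knockout library, 1.28-fold lower. The lower gene was Ifit3, an antiviral protein gene, at 946 FPKM in WT against 411 in the knockout library. It has 51.2% of its words in another tabulated gene and is uncertain. Ifit2, the most abundant in WT (named after its value was seen), was at 2647 and 1483 FPKM, and Cxcl10, the most abundant in SIRPα-KO, at 2406 and 2283 FPKM. The ratios of Slfn4 and Slfn8 (-2.10 and -1.66) were below the lowest in this list. Those of Slfn9 and Slfn10-ps (1.12 and 1.71) were above its highest. The separate values of Slfn8, Slfn9 and Slfn10-ps are uncertain because of the shared sequence given above. Slfn8 summed with Slfn9 (-0.49), and both with Slfn10-ps (-0.32), lay within the range of the list. Slfn9 summed with Slfn10-ps (1.23) lay above it, and Slfn4 summed with Slfn3 (-1.85) below it. Sums with Slfn10-ps were chosen after the values had been seen. All this is a description of ranges and not a test.

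Several Schlafen proteins act on transfer and ribosomal RNA, so enzymes that cut RNA or control translation in infected cells were set beside them. Of 19 kept genes, 4 of which are also in the type I interferon list, 0 were higher and 2 lower, with a median log2 ratio of -0.07. Rnaset2b, a copy of the lysosomal RNase T2 gene, was at 64.1 and 4.69 FPKM, but 56.0% of its words occur in another gene. Its sum with Rnaset2a was 399 FPKM in WT against 447 in the knockout library. Zc3h12c, which encodes a relative of the RNase Regnase-1, was at 17.4 and 6.86 FPKM. Samhd1, which depletes nucleotides and was the most abundant of the list, was at 986 and 1163 FPKM. Ang, the angiogenin gene (named after its value was seen), was at 1.2 and 0.51 FPKM, a plain ratio of 2.35-fold that was not called on the log2(FPKM + 1) scale. The remaining kept enzymes were short of 2-fold, as Slfn1, Slfn2, Slfn3 and Slfn5 were.

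Slfn1 and Slfn2 are known for growth arrest and quiescence, and Slfn1 for an effect on cyclin D1. Of 20 kept genes of cell cycle entry and quiescence, 0 were higher and 3 lower, and the median was 0.05. Over all kept genes 3.43% were higher and 4.3% lower. Ccnd1, the cyclin D1 gene, was at 42.1 FPKM in WT against 4.88 in the knockout library, with a log2 ratio of -2.87. Mcm6, part of the replicative helicase, was at 8.62 and 1.08 FPKM, and Ccne1, the cyclin E1 gene (named after its value was seen), at 3.6 and 0.84 FPKM. Cdkn1a, the gene of the cell cycle inhibitor p21 and the most abundant of the list, was at 377 and 546 FPKM. The list did not go 1 way, and 7 of the 20 kept ratios were below 0. Mki67 (3.49 and 6.7 FPKM), Ccne2 (1.99 and 3.64 FPKM) and Ccnd2 (111.59 and 152.48 FPKM) had higher values in SIRPα-KO. Cdkn1c (8.49 and 4.42 FPKM) had a lower value, and Pcna (106.15 and 108.57 FPKM) was nearly equal. These genes were short of 2-fold on the log2(FPKM + 1) scale and were named after their values were seen. Slfn1 and Slfn2 themselves were short of 2-fold beside this lower Ccnd1, and a link between their levels and Ccnd1 was not tested.

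Some facts of the libraries bear on every value above. Sirpa, the targeted gene, was at 153.9 FPKM in WT against 71.5 in the knockout library, so its transcript was lower and still present. Xist was at 47.5 and 0.91 FPKM, and 4 Y-linked genes were at 0 to 0.05 FPKM in WT but 2.52 to 21.4 FPKM in the knockout library. Sex and genotype of the mice therefore cannot be told apart. All 10 macrophage markers were kept in both libraries, with 0 higher and 1 lower (Csf1r, the M-CSF receptor, at 248 and 110 FPKM) and Lyz2 the most abundant at 7106 and 7208 FPKM.

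Markers of other cells that can express Schlafen genes were also read. Of 10 kept neutrophil markers, 5 were lower and 0 higher, beside 4.3% lower and 3.43% higher over all kept genes. The summed level of the 11 tabulated ones was 542 FPKM in WT against 292 in the knockout library. The granule gene Elane was at 3.36 and 0.5 FPKM, the granule gene Camp at 5.59 and 1.41 FPKM, and S100a9, the most abundant, at 202 and 98.1 FPKM. The other lower ones, named after their values were seen, were S100a8 (133 and 62.6 FPKM) and Ngp (68.8 and 24.7 FPKM). Retnlg was at 0.46 FPKM in WT but listed at 0 for the knockout library. The markers did not all go 1 way: 8 of the 10 ratios were below 0. Cxcr2 (8.66 and 11.7 FPKM) and Mpo (2.38 and 3.34 FPKM) had higher values in SIRPα-KO. Ltf (2.71 and 0.98 FPKM), Lcn2 (109.6 and 84.5 FPKM) and Mmp8 (4.91 and 3.8 FPKM) had lower values and were not called. These 5 were named after their values were seen. The neutrophil sum was 1.86-fold lower. The 5 called markers were lower by 2.06-fold (S100a9) to 6.72-fold (Elane), while Cxcr2 and Mpo had higher values. Slfn4 was 4.32-fold lower and Slfn8 3.18-fold lower, and the part of these cells in either difference was not tested. T and NK cell markers summed to 30.0 and 35.7 FPKM over 11 genes, with 1 of 5 kept higher (Ifng, 0.52 and 3.24 FPKM) and Lck the most abundant at 12.8 and 16.7 FPKM. The T cell receptor genes Cd3e (listed at 0 and 0.06 FPKM) and Cd3g (listed at 0 in both) were at or near 0, but Cd3d (6.29 and 6.79 FPKM), Cd4 (7.88 and 4.96 FPKM) and Cd8a (2.12 and 2.78 FPKM) were kept. B cell markers summed to 46.5 and 44.6 FPKM, nearly all of it Blnk (40.4 and 42.1 FPKM), with 0 of 4 kept called. The B cell receptor genes Cd79a (1.69 and 0.62 FPKM) and Cd79b (2.41 and 0.96 FPKM) were among the kept ones. Their plain ratios, 2.73-fold and 2.51-fold, were not called on the log2(FPKM + 1) scale. With a pseudocount of 0.1 or a 1.5-fold limit, 2 B cell markers were lower. Dendritic cell markers summed to 57.6 and 188 FPKM, with 3 of 7 kept higher and 1 lower. Among them Ccl22 was at 11.2 and 139 FPKM, Ccr7 at 6.93 and 23.8 FPKM and Itgax, the lower one, at 27.7 and 12.1 FPKM. Dpp4, the remaining higher marker, was at 1.32 and 4.95 FPKM. Most of the difference in the dendritic sum was that of Ccl22. The other markers were named after their values were seen. Siglech (3.03 and 1.11 FPKM), Xcr1 (3.3 and 2.99 FPKM) and Clec9a (3.36 and 3.34 FPKM) were kept and not called. Flt3 (0.34 and 0.1 FPKM), Zbtb46 (0.2 and 0.7 FPKM) and Cd209a (0.18 FPKM and listed at 0) were below the minimum. The part of T, NK, B or dendritic cells in the Schlafen values was not tested.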

How the data were processed

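The authors deposited 1 table per library with a gene number, RefSeq accessions, a symbol and 1 value per gene, taken to be FPKM. The deposited tables name no unit. It was inferred from steps between low values that scale with transcript length: with a step for roughly 11000000 reads per library, low values came within 0.15 of whole reads for 72.8% of genes in WT and 72.5% in SIRPα-KO. With lengths shuffled these shares were 30.2% and 35.8%. The submitters' processing notes name mm9, R 3.3.3 and DESeq2, without their use. No source used here gives the aligner, the counting program or the use of strand.

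Ratios are differences of log2(FPKM + 1), SIRPα-KO minus WT, which makes differences between low values look smaller. A gene was kept if it reached 1 FPKM in either library. A gene was called at 2-fold or more. No p-value was computed. Call rule, depth estimate and word counts were tested on simulated data. The simulated data for the call rule held counting error only. They had no variation between mice or libraries and no shared reads, so they cannot show how reliable a call is here. Sequences came from RefSeq tables (GRCm38.p6; 16211 gene numbers matched) and GENCODE release 21 for mouse, aligned with Biopython 1.88. Shared sequence was counted over 16146 genes with a transcript.

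The members and gene lists were chosen with earlier results of these data known. Named genes are the members, their relatives, Sirpa, the 3 nearest tabulated genes on each side and, per list, up to 2 called genes per direction and the most abundant gene. Alternatives were another pseudocount, other minimums, scalings and fold limits, and sums of related genes.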

Additional observations from a re-analysis of the deposited data

How the results depend on the processing

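The counts of 1 higher and 2 lower members were the same with a pseudocount of 0.1, with no minimum, with a minimum of 5 FPKM, with median-of-ratios or trimmed-mean scaling and with a 1.5-fold limit. The median log2 ratio of the members, -0.28, was -0.29 with a pseudocount of 0.1 and -0.34 with either scaling. Each member kept its direction under these settings, and Slfn9 was nearest to the limit (1.05 with either scaling). Summing was the setting that changed calls: Slfn8 with Slfn9 gave -0.49, and with Slfn10-ps as well -0.32 (chosen after seeing the data), so that Slfn9 turned direction and Slfn8 was no longer past 2-fold, by the construction of the sum. Slfn3 summed with Slfn4 gave -1.85, and Slfn9 summed with Slfn10-ps (chosen after seeing the data) gave 1.23, both still past 2-fold. The median of flanking genes ran from -0.23 to 0. Calls over all kept genes rose from 346 higher and 434 lower to 589 and 676 with a pseudocount of 0.1, and to 1103 and 1032 with a 1.5-fold limit. At that limit 6 type I interferon genes were lower in place of 1. No paired analysis was possible because each genotype has 1 library, and for the same reason no library could be left out.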
